A study of Mus musculus with 6 samples.

Results

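The genes described here are *Cdh6* and 9 relatives of the cadherin family, *Cdh1*, *Cdh2*, *Cdh3*, *Cdh4*, *Cdh5*, *Cdh10*, *Cdh11*, *Cdh13* and *Cdh15*, in the tibia of mice with and without *Atrx* in the osteoblast lineage. They were taken by gene symbol, 10 of the 55401 genes in the count tables. *Cdh6* was selected on its measured counts, which were lower in the knockout libraries than in the controls, so the genotype difference of *Cdh6* is a description with no test. The others are members of its family, and their differences in the same contrast are given in the same way. *Cdh6* had 6.06 ± 0.546 CPM (counts scaled to the size of the library, SD, n = 3) in control and 1.82 ± 0.469 CPM (SD, n = 3) in Atrx-cKO tibias. In contrast, the abundant cadherins of bone, *Cdh11* and *Cdh2*, overlapped between the genotypes, through control replicate 1.

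RNA from tibias of male mice aged 8 weeks was sequenced as 6 polyadenylated libraries, 3 Atrx-cKO and 3 control, which the labels give as separate samples without naming the animals. Atrx-cKO mice had the genotype Osterix-Cre; Atrxf/y, with a Tet-off Cre driven by *Sp7* (*Osterix*) regulatory sequence in preosteoblasts and held silent with doxycycline until 3 weeks of age. Control mice were Atrxf/y, so both groups carried the floxed allele on their single X chromosome, the transgene was present in Atrx-cKO mice alone, and 0 libraries held the transgene with intact *Atrx*. Counts on genes ranged from 50977777 to 70571655 per library, and an allowance of 3 counts for a gene with no reads comes to between 0.0425 and 0.0588 CPM, which covers counting error only. Osteoblast markers were abundant in every library. The summed level of *Sp7*, *Runx2*, *Col1a1*, *Bglap*, *Ibsp* and *Alpl* was at least 57865 CPM. In whole bone, fewer cells of a type and less RNA per cell cannot be told apart.

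Cadherins are calcium-dependent adhesion proteins that span the plasma membrane and bind cadherins on the neighboring cell. The cytoplasmic tail of a classical cadherin binds p120-catenin and β-catenin, and α-catenin joins the complex to actin. Type I cadherins (*Cdh1*, *Cdh2*, *Cdh3*, *Cdh4* and *Cdh15*) and type II cadherins (*Cdh5*, *Cdh6*, *Cdh10* and *Cdh11*) differ in the adhesive interface of the outermost domain, while T-cadherin (*Cdh13*) has a GPI anchor and no cytoplasmic tail. Osteoblasts are known for N-cadherin (*Cdh2*) and OB-cadherin (*Cdh11*), and *Cdh6*, or K-cadherin, is best known from kidney and the developing nervous system.

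*Cdh6* (ENSMUSG00000039385) occupies 13028701 to 13173675 of chromosome 15 (GRCm38, minus strand). The start of a gene is where its transcription is set, and the 250 bases upstream of the *Cdh6* start are shown because *Cdh6* is the gene on which the description turns. They are from RefSeq on GRCm38.p6, minus strand, chr15:13173676-13173925, read 5′ to 3′ in the direction of transcription. Capitals mark the run that holds the GC box letters GGGCGG, the core of the site bound by SP-family factors.

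Cdh6 upstream: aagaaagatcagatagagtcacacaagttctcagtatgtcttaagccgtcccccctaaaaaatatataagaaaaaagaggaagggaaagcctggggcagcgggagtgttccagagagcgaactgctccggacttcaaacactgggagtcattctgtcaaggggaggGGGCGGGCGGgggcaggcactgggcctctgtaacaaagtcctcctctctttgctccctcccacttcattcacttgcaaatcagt

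GGGCGG was found 2 times in the 300-base window of *Cdh6* that ends 50 bases past the start, in overlapping positions, and on either strand it is present in 35.7% of the 32851 promoter windows of the same length. The RUNX core TGTGGT was found 0 times and the E-box CACCTG, the letters recognized by SNAI and ZEB repressors, 0 times. These are present on either strand in 16.8% and 20.2% of windows. The G and C content was 53.0%, against a median of 52.7% over all windows. Of the 10 genes, 3 had a window, *Cdh6*, *Cdh10* and *Cdh15*. The *Cdh15* window held GGGCGG 3 times and TGTGGT 1 time, and the *Cdh10* window held GGGCGG 0 times and TGTGGT 2 times. These matches are letters in a window, and binding was not measured.

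*Cdh6* had 310, 427 and 302 counts in control replicates 1, 2 and 3 and 75, 115 and 127 in Atrx-cKO replicates 1, 2 and 3. Scaled to CPM, the controls were at 5.43, 6.41 and 6.34 and the Atrx-cKO libraries at 1.28, 2.01 and 2.16. The genotypes did not overlap, and Atrx-cKO replicate 1 was the lowest library. The control mean was 3.34 times the Atrx-cKO mean, with a fitted log2 fold change of -1.74 (standard error 0.23). With any 1 library left out, the log2 fold change stayed between -1.88 and -1.54. Of the 20636 genes tested, 0.0145% passed both thresholds, an adjusted p under 0.05 and a difference of 1 or more in size on the log2 scale (quasi-likelihood test of edgeR, Benjamini-Hochberg adjusted), and 0 of the 8 cadherins tested did. DESeq2's Wald test called 0.0975% of its 23588 genes and edgeR without a filter on low counts 0.0138% of 36318, and in each *Cdh6* was the 1 cadherin of the 10 among them. Since *Cdh6* was chosen on these same values, the counts describe the choice and nothing is read from them. Of all genes tested, 4.01% had every Atrx-cKO library below every control, and *Cdh6* was the 1 cadherin of the 10 among them.

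*Cdh6* was also set against 3 genes known from osteoblasts within each library, a description added after the data were seen. Since *Cdh6* was chosen on these counts and the 3 others differed little between the genotypes, the choice fixes the direction of the ratios. Per 1000 counts of *Cdh11*, *Cdh6* had 11.65, 10.03 and 10.05 counts in control replicates 1, 2 and 3 and 2.72, 3.69 and 3.66 in Atrx-cKO replicates 1, 2 and 3. Control replicate 1 had the highest ratio and the lowest *Cdh11* level. Per 1000 counts of *Cdh2*, the mean was 19.6 ± 2.79 (SD, n = 3) in control and 6.46 ± 1.26 (SD, n = 3) in Atrx-cKO. *Sp7* encodes the transcription factor Osterix, whose regulatory sequence drives the Cre. Per 1000 counts of *Sp7*, the means were 16.9 ± 1.60 (SD, n = 3) and 5.67 ± 0.893 (SD, n = 3). With each of the 3 reference genes the control mean was 2.99 to 3.15 times that of Atrx-cKO.

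**Figure D1:**
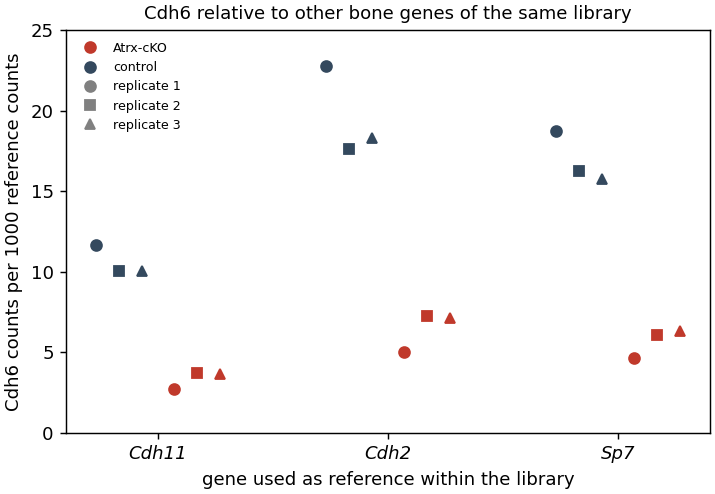
*Cdh6* counts per 1000 counts of *Cdh11*, *Cdh2* or *Sp7* in the same library (vertical axis, from 0), with 1 point per library, colors for genotype and shapes for replicate. For each reference gene all 3 Atrx-cKO libraries sit below all 3 controls, for *Cdh11* at 2.72 to 3.69 against 10.03 to 11.65.

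Marker genes of 13 cell types, 68 entries in all, were summed in each library to see which moved with *Cdh6*. In 0 of the 13 lists did the summed level separate the genotypes, and edgeR and DESeq2 each called 0 of the entries. Of the 63 tested, 6 (*Ibsp*, *Tek*, *Myod1*, *Col2a1*, *Tnmd* and *Postn*) had an unadjusted p under 0.05 in edgeR, against 3.64% of all genes. All Atrx-cKO libraries lay below all controls for 3 markers (*Ibsp*, *Postn* and *Myod1*), as in 4.01% of genes, and above them for 2 (*Tek* and *Kdr*, both endothelial), as in 4.3%. *Ibsp*, which encodes bone sialoprotein, had 1307, 1978 and 2114 CPM in control replicates 1, 2 and 3 and 1264, 1238 and 1293 CPM in Atrx-cKO replicates 1, 2 and 3, a log2 fold change of -0.51 (standard error 0.18). *Postn*, which encodes the matrix protein periostin, had 425, 535 and 814 CPM in control replicates 1, 2 and 3 and 372, 371 and 323 CPM in Atrx-cKO replicates 1, 2 and 3, a log2 fold change of -0.73 (standard error 0.22). For both genes control replicate 1 was the control nearest to the Atrx-cKO libraries. *Myod1*, a transcription factor of muscle precursors, was scarce, with 18, 45 and 83 counts in control replicates 1, 2 and 3 and 16, 11 and 16 in Atrx-cKO replicates 1, 2 and 3, a log2 fold change of -1.87 (standard error 0.63). Control replicate 3, the library with the most muscle RNA, held most of its control counts. Without that library the log2 fold change was -1.02 for *Myod1*, -0.45 for *Postn* and -0.39 for *Ibsp*. In edgeR, 0.992 was the adjusted p of all 3. The tendon and periosteum list (*Tnmd*, *Scx*, *Fmod* and *Postn*, the most abundant) had 553, 699 and 1098 CPM in control replicates 1, 2 and 3 and 555, 524 and 444 CPM in Atrx-cKO replicates 1, 2 and 3. The osteoblast list, led by *Col1a1*, had 57865, 99286 and 89091 CPM in control replicates 1, 2 and 3 and 62383, 62571 and 62744 CPM in Atrx-cKO replicates 1, 2 and 3. Both sums overlapped between the genotypes through control replicate 1. The chondrocyte list had 1094, 1593 and 1598 CPM in control replicates 1, 2 and 3 and 1172, 802 and 1024 CPM in Atrx-cKO replicates 1, 2 and 3. That sum and the scarce satellite cell sum overlapped through control replicate 1 as well. The endothelial, erythroid, megakaryocyte and marrow stroma sums also did, with control replicates 2 and 3 below all Atrx-cKO libraries. The part of these markers in the *Cdh6* difference was not tested.

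No tested gene lies close to *Cdh6* on its right, where *Cdh9* and *Cdh10*, at 0 to 13 counts per library, did not pass the filter and the next tested gene is *Cdh12*, 7.28 Mb away. On the left, *Drosha*, which encodes the nuclease that starts microRNA processing, ends 93.4 kb from *Cdh6* and had a log2 fold change of 0.078 (standard error 0.089). Among the 5 tested genes on each side, 8 of 10 log2 fold changes were below 0, where the median over all genes tested was 0.0050. They ran from -1.15 for *Cdh12* to 1.91 for *Cdh18*, and the lowest adjusted p was 0.992 (edgeR). The farthest gene on the right lies 12449 kb from *Cdh6*, and some genes below 0 were scarce, with group means down to 0.131 CPM.

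The genes whose levels were most like those of *Cdh6* were ranked by Pearson's r of log2(CPM + 0.5) over the 6 libraries, among 16170 tested genes with a mean of at least 1 CPM. They were *Rnf207* (r = 0.990), *Tpbg* (r = 0.987), *Plcl1* (r = 0.977), *Frzb* (r = 0.973) and *Ubb* (r = 0.971). A gene that differs between the genotypes ranks high by this measure, so the ranking is a description and carries no test. *Frzb*, a secreted Wnt antagonist, had 12.0 ± 1.37 CPM (SD, n = 3) in control and 7.55 ± 0.710 CPM (SD, n = 3) in Atrx-cKO tibias. *Rnf207* had 2.23 ± 0.230 CPM (SD, n = 3) and 1.15 ± 0.175 CPM (SD, n = 3). *Ubb*, a polyubiquitin gene, was abundant, at 503 ± 2.96 CPM (SD, n = 3) and 486 ± 6.67 CPM (SD, n = 3). None of the 5 was called, with an adjusted p of 0.992 for each in edgeR. By the same ranking *Sp6*, *Rab11fip4*, *Snhg18*, *Mlip* and *Atp1b3* were most like *Cdh11* (r = 0.993 to 0.9998). Those most like *Cdh5* were *Gm29439*, *Ighd*, *Gm49085*, *4930551O13Rik* and *Dscc1* (r = 0.989 to 0.995), and those most like *Cdh15* were *Tmem259*, *Nfix*, *Evi5l*, *Gm42836* and *Fam171a2* (r = 0.991 to 0.996).

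To compare the cadherins with each other, CPM were divided by the exonic length of each gene in kb. In control tibias the order of these per-length levels was *Cdh11*, *Cdh2*, *Cdh5*, *Cdh15*, *Cdh13*, *Cdh6*, *Cdh4*, *Cdh1*, *Cdh3* and *Cdh10*. *Cdh11* led with 65.0 ± 11.0 CPM per kb (SD, n = 3), above *Cdh2* at 39.2 ± 8.39 (SD, n = 3) in every control. The control libraries of *Cdh2* and *Cdh5* overlapped. *Cdh15* followed at 21.1 ± 1.93 CPM per kb (SD, n = 3), and *Cdh13* at 1.04 ± 0.403 CPM per kb (SD, n = 3) was well below. *Cdh6* had 0.672 ± 0.0605 CPM per kb (SD, n = 3). The values of *Cdh6* and *Cdh4*, of *Cdh4* and *Cdh1*, and of *Cdh3* and *Cdh10* overlapped in controls. The order within these pairs is not set beyond the spread. In Atrx-cKO tibias *Cdh6* was at 0.201 ± 0.0519 CPM per kb (SD, n = 3), below *Cdh4* at 0.374 ± 0.0298 (SD, n = 3) and *Cdh1* at 0.420 ± 0.112 (SD, n = 3).

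**Figure D2:**
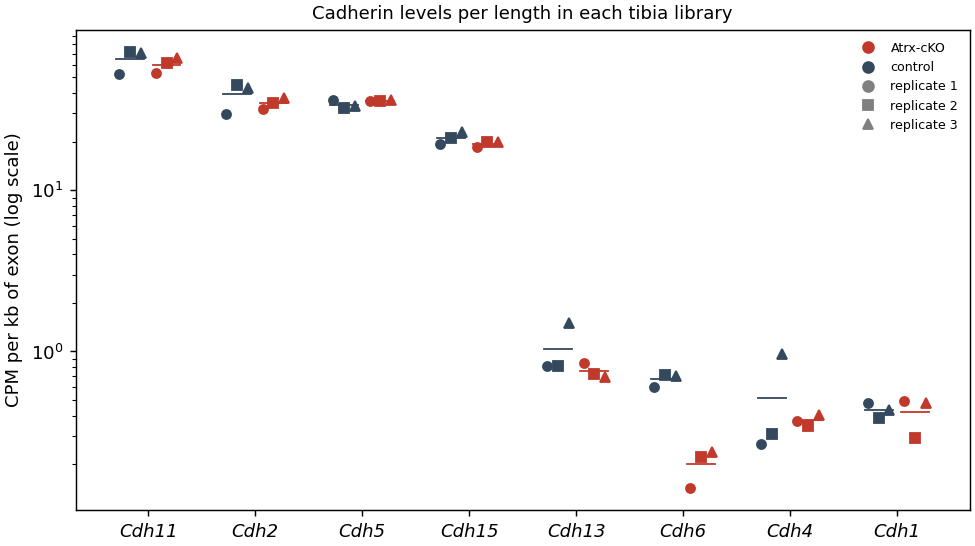
CPM per kb of exon (log axis) of the 8 cadherins that passed the expression filter, ordered by control level, with 1 point per library and a line at each group mean. *Cdh11*, *Cdh2*, *Cdh5* and *Cdh15* lie at least 15.3-fold above the other 4 within each library, and *Cdh6* is the gene whose 3 Atrx-cKO points all sit below its controls.

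Among the type II cadherins, *Cdh11* (ENSMUSG00000031673, chromosome 8 from 102632095), the OB-cadherin of osteoblasts and other mesenchyme, had 466, 639 and 631 CPM in control replicates 1, 2 and 3 and 471, 546 and 589 CPM in Atrx-cKO replicates 1, 2 and 3. The groups overlapped, with control replicate 1 the lowest of the 6 libraries. The log2 fold change was -0.11 (standard error 0.15). Without control replicate 1 it was -0.25 (standard error 0.11), and the other controls lay above all Atrx-cKO libraries.

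*Cdh5* (ENSMUSG00000031871), VE-cadherin, is the adhesion protein of endothelial junctions. It was the steadiest of the abundant cadherins, with 151, 135 and 140 CPM in control replicates 1, 2 and 3 and 150, 150 and 153 CPM in Atrx-cKO replicates 1, 2 and 3. The groups overlapped through control replicate 1, and the highest library was 1.13 times the lowest. The log2 fold change was 0.086 (standard error 0.077), and 0.13 without control replicate 1. Over the 8 endothelial markers, among them *Pecam1*, *Tek*, *Emcn* and *Kdr* (the most abundant), the summed level was 558, 495 and 494 CPM in control replicates 1, 2 and 3 and 541, 581 and 565 CPM in Atrx-cKO replicates 1, 2 and 3. Control replicates 2 and 3 were the lowest libraries for both. *Cdh10* had 7, 2 and 0 counts in control replicates 1, 2 and 3 and 13, 5 and 8 in Atrx-cKO replicates 1, 2 and 3, too few to pass the filter.

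Of the type I cadherins, *Cdh2* (ENSMUSG00000024304), the N-cadherin of osteoblasts, muscle and nerve, had 239, 364 and 347 CPM in control replicates 1, 2 and 3 and 256, 278 and 303 CPM in Atrx-cKO replicates 1, 2 and 3. All 3 Atrx-cKO libraries lay inside the control range. The log2 fold change was -0.18 (standard error 0.16). The overlap rested on control replicate 1, without which the log2 fold change was -0.35 (standard error 0.098). As with *Cdh11* and the osteoblast sum, control replicate 1 was the lowest library and control replicate 2 the highest, whereas the osteoblast markers *Sp7*, *Runx2* and *Ibsp* were highest in control replicate 3.

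*Cdh15* (ENSMUSG00000031962), the M-cadherin of muscle precursor cells, had 62.4, 68.2 and 75.0 CPM in control replicates 1, 2 and 3 and 60.6, 64.5 and 64.5 CPM in Atrx-cKO replicates 1, 2 and 3. The groups overlapped through control replicate 1, with a log2 fold change of -0.12 (standard error 0.085) that ran from -0.18 to -0.060 with any 1 library left out. RNA of skeletal muscle fiber markers varied far more. The 6 muscle fiber markers, led by *Myh4*, summed to 641, 710 and 9920 CPM in control replicates 1, 2 and 3 and to 1970, 953 and 579 CPM in Atrx-cKO replicates 1, 2 and 3, a span of 17.1-fold, against 1.24-fold for *Cdh15*. Control replicate 3 was the highest library for 5 of the 6, while *Myh1* had 52.4 CPM there and was highest in Atrx-cKO replicate 1, at 181 CPM. The satellite cell markers were scarce. *Pax7* had 0, 5 and 15 counts in control replicates 1, 2 and 3 and 2, 1 and 6 in Atrx-cKO replicates 1, 2 and 3, *Myf5* had at most 1 count in any library, and the 5 genes of the list, led by *Calcr*, summed to between 0.998 and 5.84 CPM.

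*Cdh4* (ENSMUSG00000000305), the R-cadherin of retina and developing muscle, was highest in the library with the most muscle RNA. It had 1.93, 2.22 and 7.02 CPM in control replicates 1, 2 and 3 and 2.70, 2.50 and 2.94 CPM in Atrx-cKO replicates 1, 2 and 3. Control replicate 3 stood alone, and the other controls lay below all Atrx-cKO libraries. The log2 fold change of -0.45 (standard error 0.47) changed to 0.37 without control replicate 3. *Cdh13* (ENSMUSG00000031841), T-cadherin, a receptor for adiponectin and LDL in vessels, heart and muscle, was also highest there, with 9.08, 9.08 and 16.9 CPM in control replicates 1, 2 and 3 and 9.51, 8.11 and 7.83 CPM in Atrx-cKO replicates 1, 2 and 3. Its log2 fold change of -0.46 (standard error 0.25) was -0.11 without control replicate 3. The part of muscle in both was not tested.

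**Figure D3:**
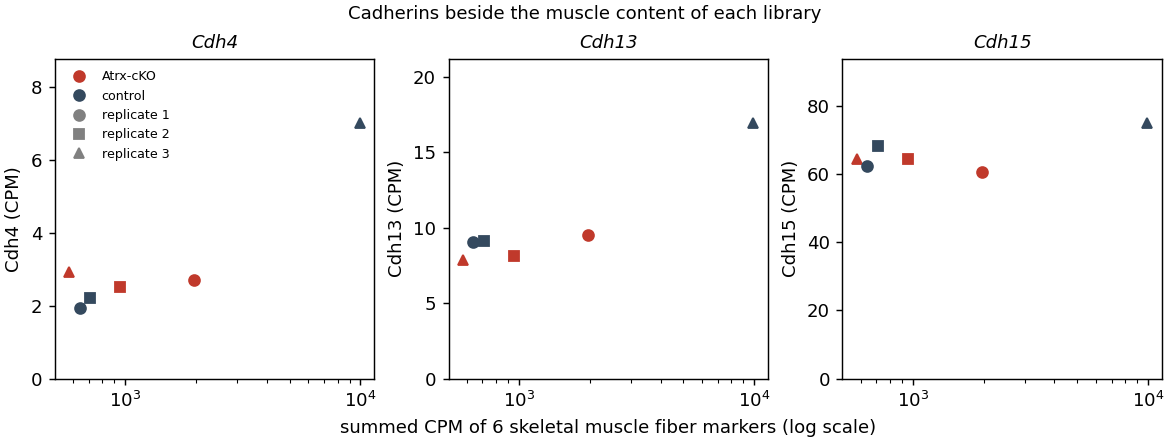
Level in CPM of *Cdh4*, *Cdh13* and *Cdh15* (vertical axes, from 0) against the summed CPM of 6 skeletal muscle fiber markers (log axis), with 1 point per library. Control replicate 3, at 9920 CPM of muscle markers, is the highest library for all 3 genes, by a wide margin for *Cdh4* (7.02 CPM) and *Cdh13* (16.9 CPM) and by a narrow one for *Cdh15* (75.0 CPM).

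*Cdh1* (ENSMUSG00000000303), E-cadherin, holds epithelia together and is also found on erythroid precursors. It had 2.19, 1.77 and 1.97 CPM in control replicates 1, 2 and 3 and 2.24, 1.33 and 2.19 CPM in Atrx-cKO replicates 1, 2 and 3. The groups overlapped, with Atrx-cKO replicate 2 the lowest, and the log2 fold change was -0.042 (standard error 0.26). Of the epithelial markers, *Krt5* was at 0 counts in all 6 libraries and *Krt14* had at most 6 counts. *Epcam* was the most abundant, at 3.47 to 7.15 CPM, and the list of 4 summed to between 6.18 and 10.4 CPM. *Cdh3* (ENSMUSG00000061048), the P-cadherin of placenta and skin, had 5, 0 and 0 counts in control replicates 1, 2 and 3 and 4, 0 and 1 in Atrx-cKO replicates 1, 2 and 3, and was not detectable above the allowance of 3 counts in 4 of the 6 libraries.

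Of the 10 cadherins, 8 passed the filter, and the log2 fold changes of the 7 tested besides *Cdh6* ran from -0.46 for *Cdh13* to 0.086 for *Cdh5*, with overlapping groups in each. The median over all 20636 genes tested was 0.0050. Of the 10 genes, 0 share exonic bases with another annotated gene.

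Of 13 further cadherins, listed by family membership, 5 passed the filter, with 0 higher and 0 lower at the thresholds used above. *Cdh23*, the long cadherin of hair cell tip links, had the lowest unadjusted p of them. It had 7.38 ± 1.03 CPM (SD, n = 3) in control and 4.69 ± 0.353 CPM (SD, n = 3) in Atrx-cKO tibias, a log2 fold change of -0.65 with a standard error of 0.16 and an adjusted p of 0.992 (edgeR). Its Atrx-cKO libraries lay below all controls, as in 4.01% of genes. *Cdh12* and *Cdh18* are brain cadherins that neighbor each other on chromosome 15. *Cdh12* had 16, 95 and 55 counts in control replicates 1, 2 and 3 and 27, 18 and 30 in Atrx-cKO replicates 1, 2 and 3, with a log2 fold change of -1.15 (standard error 0.57). That value was -0.72 without control replicate 2 and -1.59 without control replicate 1. *Cdh18* had 3, 22 and 0 counts in control replicates 1, 2 and 3 and 32, 26 and 32 in Atrx-cKO replicates 1, 2 and 3. Control replicate 2 held most of the control counts of *Cdh18*, and the log2 fold change of 1.91 (standard error 0.90) was 4.09 without it. All Atrx-cKO libraries of *Cdh18* were above the controls, as in 4.3% of genes. Both had an adjusted p of 0.992 in edgeR. *Cdh19*, a cadherin of Schwann cell precursors, had 0.249 ± 0.0993 CPM (SD, n = 3) in control and 0.468 ± 0.226 CPM (SD, n = 3) in Atrx-cKO. The Schwann cell list summed to 108 ± 7.07 CPM (SD, n = 3) and 109 ± 12.2 CPM (SD, n = 3), with *Pmp22* its most abundant gene. *Cdh24*, at 5.54 ± 1.30 and 4.42 ± 0.377 CPM (SD, n = 3 each) in control and Atrx-cKO, had a log2 fold change of -0.33 with a standard error of 0.20 and overlapping groups. Without control replicate 2 the log2 fold change of *Cdh24* was -0.13, and without control replicate 1 it was -0.46.

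**Figure D4:**
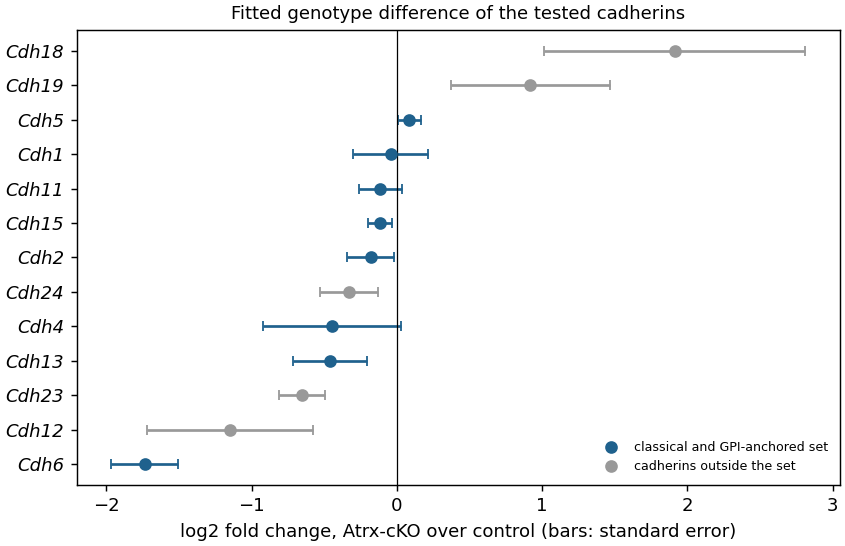
Fitted log2 fold change of Atrx-cKO over control (horizontal axis) of the 13 cadherins that passed the filter, with bars for the standard error from edgeR and colors for the set described and the cadherins outside it. *Cdh6* lies farthest below 0 at -1.74, *Cdh18* farthest above at 1.91 with a wide bar, and *Cdh5*, *Cdh1*, *Cdh11*, *Cdh15* and *Cdh2* lie between -0.18 and 0.086.

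Of 12 catenins and actin linkers, the cytoplasmic partners of the cadherins, 11 were tested, 0 were called, and the median log2 fold change was -0.011. The farthest from 0 was the scarce *Ctnna3*, an α-catenin of heart and testis, with a log2 fold change of -0.88 (standard error 0.65) and overlapping groups. *Ctnna2*, the α-catenin of neurons, did not pass the filter, with 5, 8 and 4 counts in control replicates 1, 2 and 3 and 2, 1 and 0 in Atrx-cKO replicates 1, 2 and 3. *Ctnnb1* (β-catenin), which binds the cadherin tail and carries Wnt signals, had 1051 ± 74.9 CPM (SD, n = 3) in control and 1043 ± 41.4 CPM (SD, n = 3) in Atrx-cKO, and 14.6% of its exonic length lies opposite exons of *Ulk4* on the other strand. *Ctnna1* (α-catenin) had 190 ± 1.13 and 192 ± 7.19 CPM (SD, n = 3 each). *Ctnnd1* (p120-catenin) had 27.8 ± 2.71 and 27.2 ± 1.53 CPM (SD, n = 3 each), and is uncertain since 61.2% of its exonic length is shared with the annotated gene *Gm28635* on the same strand. *Pkp4*, a p120 relative, had the lowest unadjusted p of the list, with a log2 fold change of -0.15 with a standard error of 0.096 and an adjusted p of 0.992 (edgeR). Its log2 fold change was -0.073 without control replicate 2 and -0.24 without control replicate 1.

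Of 4 nectins, which start cell contacts that cadherins then strengthen, 0 were called. *Nectin2* had 16.1 ± 1.35 CPM (SD, n = 3) in control and 20.6 ± 2.003 CPM (SD, n = 3) in Atrx-cKO, which is a log2 fold change of 0.36 with a standard error of 0.11 and an adjusted p of 0.992 (edgeR). Its Atrx-cKO libraries lay above all controls, as in 4.3% of genes. All 13 genes of cadherin maturation and cleavage were tested and 0 were called, with a median log2 fold change of -0.0094. *Furin*, which removes the propeptide, had 129 ± 7.17 and 121 ± 1.31 CPM (SD, n = 3 each) in control and Atrx-cKO, and *Adam10*, which sheds the ectodomain, 237 ± 4.63 and 237 ± 13.3 CPM (SD, n = 3 each). *Pcsk5* had the lowest unadjusted p of these, with a log2 fold change of -0.32 with a standard error of 0.17 and an adjusted p of 0.992 (edgeR). Its log2 fold change was -0.20 without control replicate 2 and -0.49 without control replicate 1.

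The 7 repressors known from the *Cdh1* promoter were all tested and 0 were called, with a median log2 fold change of 0.026. *Snai2* had 50.7 ± 1.89 CPM (SD, n = 3) in control and 39.5 ± 8.70 CPM (SD, n = 3) in Atrx-cKO, which is a log2 fold change of -0.36 with a standard error of 0.15 and an adjusted p of 0.992 (edgeR). Its Atrx-cKO libraries lay below all controls, as in 4.01% of genes, with Atrx-cKO replicate 3 at 49.0 CPM and control replicate 2 at 49.2 CPM. Without Atrx-cKO replicate 2 the log2 fold change was -0.24, and without Atrx-cKO replicate 3 it was -0.55. *Zeb2*, the most abundant of the ZEB and SNAI genes, had 265 ± 11.5 and 270 ± 7.63 CPM (SD, n = 3 each). Receptors that bind cadherins without being cadherins were represented by 7 genes, all tested with 0 called and a median of 0.0020. *Itga2b* and *Itgb3* encode the platelet integrin, and *Itga2b* had 263 ± 109 CPM (SD, n = 3) in control and 317 ± 13.5 CPM (SD, n = 3) in Atrx-cKO. Its control replicates 1, 2 and 3 were at 390, 197 and 203 CPM. The log2 fold change of *Itga2b* was 0.27 (standard error 0.25), 0.091 without control replicate 2 and 0.66 (standard error 0.083) without control replicate 1. *Itgb1* had 649 ± 46.2 and 642 ± 7.53 CPM (SD, n = 3 each).

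In the lists of family and pathway genes outside the 10 cadherins, 47 of 56 genes were tested. EdgeR and DESeq2 each called 0 of them, and 3 (*Cdh23*, *Nectin2* and *Snai2*) had an unadjusted p under 0.05 in edgeR, against 3.64% of all genes. The genotypes did not overlap for 4 of the 47, with 2 higher and 2 lower in Atrx-cKO, against 4.3% and 4.01% of all genes. The median log2 fold change of the 47 was -0.0094.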

How the data were processed

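The authors deposited raw counts per Ensembl gene, 1 table per library. According to the paper, GENEWIZ made and sequenced the libraries and compared the expression of the groups. The submitters' processing notes name GRCm38 and DESeq2. The aligner, counter and annotation are not given in the sources used here. Reads on no feature, 51.6% to 52.4% of each table, and the other summary entries were left out. GENCODE M21 on GRCm38 named 55141 of 55401 identifiers, and exonic length is the union of its exons. Libraries of 1 genotype differed by more than sampling noise (chi-square per degree of freedom 15.8 to 137). Counts were fitted with edgeR 4.0.16 in R 4.3.3 (TMM, filterByExpr, glmQLFit and glmQLFTest, genotype alone, Benjamini-Hochberg over 20636 genes), with the fold change threshold of the study. The standard error is the log2 fold change over the root of F. DESeq2 1.42.0, RLE scaling, other filters, a replicate block and left-out libraries were alternatives. On simulated counts of this comparison with 200 genes changed by 2 on the log2 scale, edgeR recovered 189 with 13 false calls and DESeq2 191 with 30. The changed genes were drawn from those with a mean of at least 1 CPM. Each gene was simulated on its own, without shifts in tissue content between libraries, so the recovery in the real libraries is not known from this. The named genes include the 10 cadherins, the list genes with the lowest p in each list or whose role is explained, and *Cdh24*. Of the 5 tested neighbors on each side, *Drosha*, *Cdh12* and *Cdh18* are named. The 5 genes most like each of *Cdh6*, *Cdh5*, *Cdh11* and *Cdh15* are named as well. The members and lists were chosen with earlier results of these data known. The labels do not say more than that the libraries are separate samples, so p-values measure the spread between these libraries. Protein sequences were not used here.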

Additional observations from a re-analysis of the deposited data

How the results depend on the processing

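Across all genes edgeR called 3, DESeq2's Wald test 23, edgeR without a filter on low counts 5, with at least 10 counts in every library 1, and with the replicate block 0. RLE scaling gave 3. Fits that each left out 1 library called from 0 to 5 genes, with 0 when control replicate 2, Atrx-cKO replicate 1 or Atrx-cKO replicate 2 was omitted and 5 without control replicate 3. Among the 10 cadherins 0 were called, except for 1 (*Cdh6*) with DESeq2 and 1 (*Cdh6*) without a filter, and from 0 to 0 without 1 library. *Cdh6* was chosen on the values of this contrast, so these counts are no evidence about it. The cause of these changes was not tested. No family or pathway gene outside the 10 was called under any of the alternatives run. The log2 fold change of *Cdh6* was -1.77 with the replicate block. The labels give same-numbered samples a replicate number in common and do not say whether they are paired. The deviations of same-numbered libraries from the mean of their group had correlations of -0.025, 0.062 and -0.071. Of the 6 libraries, 2 correlated best with their own number. With 3 libraries per group these values cannot decide whether the numbers mark a pairing. *Cdh4* changed sign without control replicate 3, as given above, and *Cdh1*, at -0.042 over all libraries, ran from -0.17 to 0.15 with any 1 library left out. *Cdh5* in Atrx-cKO was at 155 CPM in place of 151 both without TMM and over counts without the muscle fiber genes. Of all values for single genes under the alternatives, 246 moved by less than the spread between replicates or kept their side of the threshold and 3 did not. *Cdh3* and *Cdh10* had 13 or fewer counts per library, and without a filter their log2 fold changes had standard errors of 1.74 and 1.07.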
